A study of Mus musculus with 29 samples.

Results

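The mitochondrial ribosomal protein (MRP) genes are nuclear genes named Mrpl for the large subunit and Mrps for the small subunit of the mitochondrial ribosome, and they were taken by symbol, as every gene named Mrpl or Mrps followed by a number and at most 1 letter. 76 of the 30025 genes in the table met that rule, 49 of them placed in the large subunit, 26 in the small subunit and 1, Mrps36, in neither. The libraries came from C57BL/6J mice that were wild type (WT) or heterozygous for 5A3, a germ-line deletion of the mouse segment matching part of human chromosome band 7q22 (5A3+/del). The deletion was made in embryonic stem cells between loxP sites placed within Fbxl13 and Srpk2, so it is carried by every cell of the mouse. The study used WT littermates in other experiments, and whether the WT mice sequenced here were littermates is not stated. Bone marrow cells that were c-kit+, lineage-, Sca-1+, CD41- and CD48- were sorted by CD150 into CD150hi HSC (hematopoietic stem cells), CD150lo HSC and CD150neg MPP (multipotent progenitors, labelled as an HSC fraction in the sample records). 10 mice, 5 of each genotype and 12.42 to 13.85 weeks old, gave 29 libraries, with 5 in each group except 5A3+/del CD150neg MPP, which had 4.

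Mitochondria keep a ribosome of their own, which translates the few proteins encoded in mitochondrial DNA, all of them parts of the respiratory chain and ATP synthase. Its RNA is made inside the organelle, whereas each of its proteins is encoded in the nucleus, translated in the cytosol and imported. Some of these proteins descend from those of the bacterial ribosome and others are found only in mitochondria. HSC are known to rely little on respiration while at rest, and their maintenance and differentiation have been tied to mitochondrial activity.

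Values are FPKM (fragments scaled to transcript length and library size), a scale meant for comparing levels between genes of unequal length. Each library held 21229623 to 38797889 fragments, as recovered from the steps between low values. Differences were tested on log2(FPKM + 1) after quantile normalization with limma, with Benjamini-Hochberg adjustment over 15409 genes. That set holds each gene that reached 1 FPKM in 4 or more libraries, and a call is an adjusted p under 0.05. Pmpcb, a deleted gene that encodes a subunit of the peptidase that cleaves imported mitochondrial precursors, was at 6.83 to 10.7 FPKM in WT and 2.99 to 5.67 in 5A3+/del libraries, without overlap. Of the markers of the sorted cells, Kit was at 110.9 FPKM or more in every library. Slamf1, which encodes CD150, set CD150hi HSC apart, at 9.97 to 22.6 FPKM. It was at 0.18 to 2.64 FPKM in CD150lo HSC and at most 0.30 in CD150neg MPP, and the ranges of those populations overlapped. Xist, a transcript of female cells, was at 303, 234 and 319 FPKM in the libraries of WT mouse 3 and at most 0.470 in every other library. Markers of other or gated-out cells ranged widely. Cd8a, of T cells, was at most 0.0764 FPKM, whereas Pf4, of megakaryocytes, was at 9.84 to 39.7 FPKM and Hbb-b1, of red cells, at 2.74 to 25.1 over all libraries. Cd48 reached 10.5 and Itgam, of myeloid cells, 16.3 FPKM, both in WT CD150neg MPP. The Itgam median was higher in 5A3+/del than in WT, at 3.38 against 1.38 FPKM for CD150hi HSC, 8.53 against 4.64 for CD150lo HSC and 12.2 against 9.14 for CD150neg MPP, and its part in the genotype results was not tested. Among the CD150hi HSC libraries, that of WT mouse 1 stood apart in neutrophil genes, with Mpo at 19.7, Elane at 19.1 and Ly6g at 9.31 FPKM. Ly6g was also at 4.82 FPKM in that of WT mouse 2. The CD150lo HSC library of WT mouse 1 also held Mpo at 15.7 and Elane at 27.7 FPKM. The MRP counts and medians of the genotype comparisons are therefore also given without that mouse. Leaving it out does not remove these transcripts from CD150lo HSC, where Elane reached 13.9 FPKM in 5A3+/del mouse 2 and 8.14 in WT mouse 3. The Elane median there was 6.09 FPKM in 5A3+/del and 0.950 in WT, whereas those of Mpo were 2.84 and 2.53. Their part in the genotype results was not tested.

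74 of the 76 MRP genes passed the filter. Their mean level in WT CD150hi HSC ran from 2.81 normalized FPKM for Mrps18b to 148.8 for Mrpl52, with a median of 10.5 over the genes, against 5.91 over all genes tested. The 5 genes at the top were Mrpl52, Mrpl42, Mrps16, Mrpl36 and Mrpl11. Mrpl52, at 148.8 ± 28.5 (SD, n = 5), and Mrpl42, at 42.4 ± 5.97, encode proteins of the large subunit that have no bacterial relative. Mrps16, at 42.0 ± 6.52, encodes a small-subunit protein of bacterial origin. Mrpl36, at 39.3 ± 7.53, and Mrpl11, at 30.4 ± 7.22, encode large-subunit proteins of bacterial origin, and Mrpl11 belongs to the base of the stalk that recruits translation factors. Mrpl52 exceeded the next gene in every WT CD150hi HSC library (107 FPKM at its lowest), whereas the ranges of Mrpl42, Mrps16 and Mrpl36 overlapped.

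The 5 genes at the bottom were Mrps18b at 2.81 ± 1.29, Mrps11 at 3.03 ± 1.37, Mrps10 at 3.07 ± 0.692, Mrpl23 at 3.40 ± 1.12 and Mrps25 at 3.66 ± 2.03 normalized FPKM, and their ranges over the 5 libraries all overlapped. Mrpl52 had the shortest exons of all members, 412 bases in total, and Mrps10 the longest, 8079 bases. Across the 74 genes the level fell with exon length (Spearman's rho = -0.69 over genes, which are not replicates and share these libraries). FPKM divides fragments by exon length, so level and length are not independent measures here. The part of this in the relation, and in the order of the genes, was not tested. The large subunit (48 genes, median 10.5 normalized FPKM) and the small subunit (25 genes, median 10.3) lay at like levels in WT CD150hi HSC. The 48 genes with a bacterial counterpart had a median of 11.1, and the 25 found only in mitochondria 9.34.

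**Figure D1:**
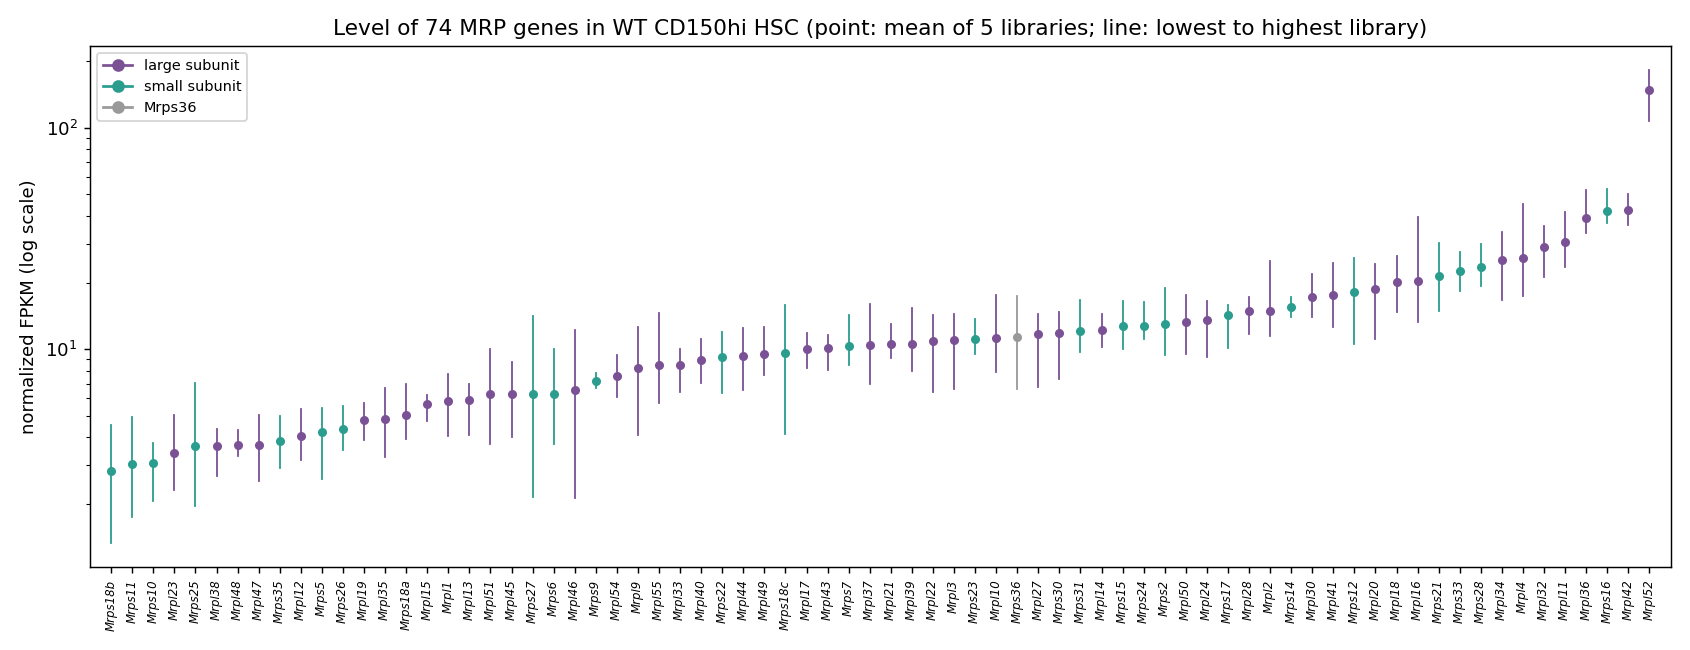
Mean normalized FPKM (log scale) of each of the 74 MRP genes that passed the filter in WT CD150hi HSC, ordered by level, with a line from the lowest to the highest of 5 libraries. The quartiles of the 74 means are 6.29 and 15.0, with Mrpl52 far above the rest.

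Replicate spread was wide for these genes. The coefficient of variation between the 5 WT CD150hi HSC libraries had a median of 25.2% over the MRP genes, from 6.48% for Mrps9 to 74.2% for Mrps27, against 29.1% over all genes tested. The standard error of a difference between genotypes was 0.196 in the median on the log2 scale in either HSC population and 0.208 in CD150neg MPP.

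2 members failed the filter. Mrpl53 was at 0 FPKM in 27 of 29 libraries and had a single fragment in each of the other two. Mrps34 stayed at or under 0.461 FPKM, with 0 to 30 fragments. Both encode proteins found only in mitochondria, of the large and the small subunit respectively. These 2 genes share more of their exon bases with neighbouring genes than any other member, 87.1% for Mrpl53 (with Ccdc142) and 77.8% for Mrps34 (with Nme3 and Mapk8ip3), in the mm9 annotation. 26 of the 76 members share at least 1 exon base with another gene, and 9 share over 20%. How fragments in shared bases were assigned is not given in the sources used here, so the near absence of these 2 transcripts cannot be told apart from uncounted fragments.

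A few members stand out by role. Mrps18a, Mrps18b and Mrps18c are paralogs of a single bacterial protein, of which Mrps18a now belongs to the large subunit. In WT CD150hi HSC, Mrps18c was at 9.64 ± 4.14, Mrps18a at 5.08 ± 1.33 and Mrps18b at 2.81 ± 1.29 normalized FPKM. In WT CD150lo HSC the order was the same, at 13.3 ± 3.04, 5.85 ± 0.851 and 2.65 ± 1.01, and there the ranges of the 3 genes over the libraries did not meet. Mrps30, also placed in the large subunit despite its name, was at 11.8 ± 3.05 in WT CD150hi HSC. Mrps36, whose product is now assigned to the 2-oxoglutarate dehydrogenase complex, was at 11.4 ± 4.40. Mrpl12, a stalk protein also reported to bind the mitochondrial RNA polymerase, was at 4.05 ± 0.859, and Mrpl32, whose maturation by the m-AAA protease is a known step of ribosome assembly, at 28.8 ± 5.64. None of these 7 genes was called between genotypes, and adjusted p-values (limma) were 0.442 or more.

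The genotype comparison asks whether loss of 1 copy of the 5A3 interval changed the MRP genes. None of the 76 lies in the deleted interval, and 4 (Mrpl1, Mrpl33, Mrps17 and Mrps18c) lie elsewhere on chromosome 5. No MRP gene was called in any population. Of all genes tested, 0.156% were called in CD150hi HSC and 0.0324% in CD150lo HSC, while for CD150neg MPP the share was 0.0454%. Among the members the lowest adjusted p was 0.153 for CD150hi HSC and 0.271 for CD150lo HSC, and in CD150neg MPP it was 1.00. In sorted pools such as these, fewer cells expressing a gene and less RNA per cell cannot be told apart. Below, p refers to limma's unadjusted value where it is used to count genes.

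In CD150hi HSC, 46 of 74 genes had an estimate below 0 in 5A3+/del, and the median difference was -0.13 (log2), or 91.1% of the WT level, against a median of 0.00 over all genes tested. 10 genes were lower at p under 0.05, 13.5% of the members against 6.79% of all genes. 3 were higher, 4.05% against 6.30%. The 48 large-subunit genes had a median of -0.12 and the 25 small-subunit genes -0.17. Without WT mouse 1, 12 genes were lower and the median was -0.11. The median was -0.07 once the trend of the difference with exon length and GC content was removed. That trend ran through the whole table: over the 4681 genes tested with exons no longer than the MRP median of 1700.5 bases, the median was -0.07 and 10.7% were lower at p under 0.05, and over the 10458 longer genes the median was 0.02. Its part in the MRP median was not tested beyond that correction.

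In CD150lo HSC, 58 of 74 genes had an estimate below 0, with a median of -0.13 (91.2% of WT), against 0.01 over all genes tested. 11 genes were lower at p under 0.05, 14.9% of the members against 4.09% of all genes and 8.59% of the 4681 genes with exons no longer than the MRP median, and none was higher, against 2.78%. Without WT mouse 1 the count of lower genes was 7 and the median -0.12. With the length and GC trend removed the count was 8 and the median -0.12. The small subunit had a median of -0.20, with 20 of 25 genes below 0, and the large subunit -0.12, with 37 of 48 below 0.

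In CD150neg MPP the members lay closer to no difference. 42 of 74 had an estimate below 0 and the median was -0.05 (96.4% of WT). 1 gene was lower at p under 0.05, 1.35% against 1.99% of all genes, and 2 were higher, 2.70% against 2.28%. Without WT mouse 1, 2 genes were lower and the median was -0.03. The large subunit had a median of -0.09 and the small subunit 0.06.

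**Figure D2:**
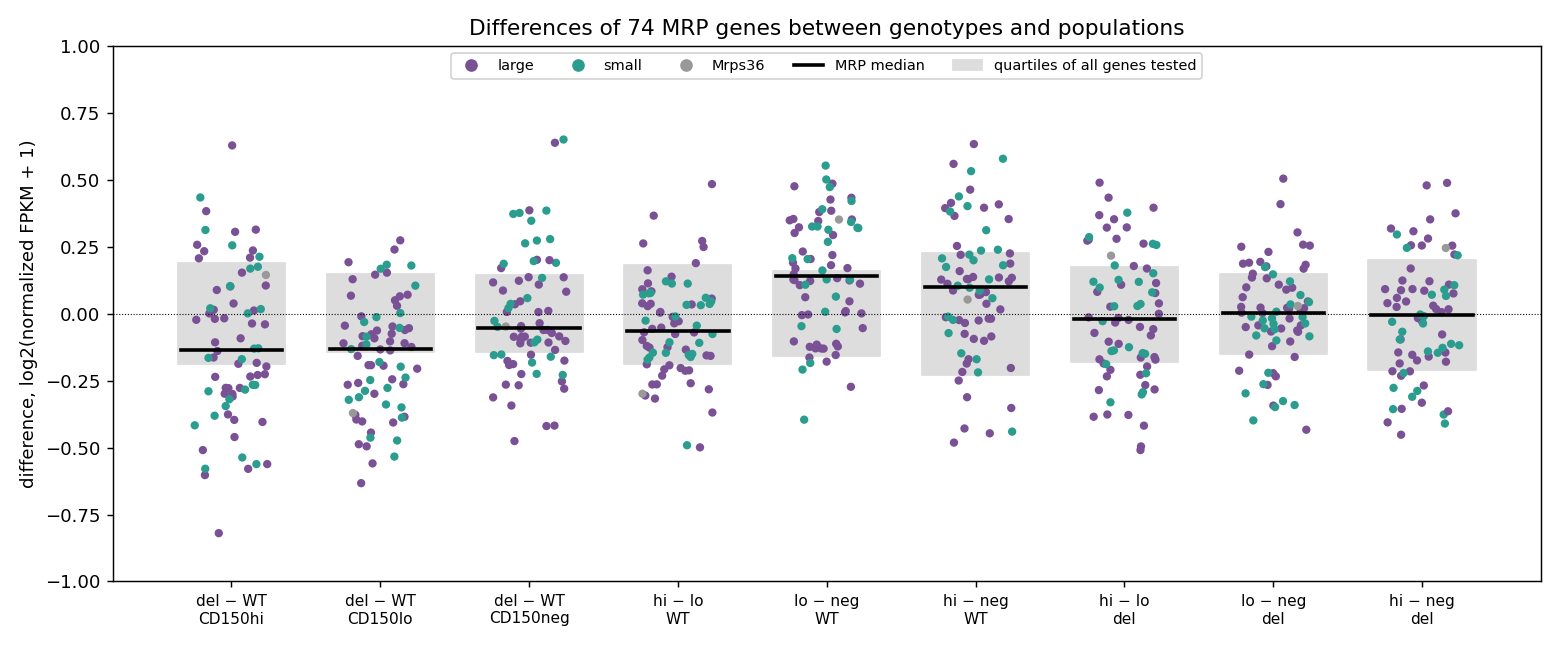
Difference in log2(normalized FPKM + 1) of the 74 MRP genes, 1 point a gene, for 5A3+/del minus WT in each population (left) and for the population pairs within each genotype (middle and right). Black lines are MRP medians, -0.13, -0.13 and -0.05 for the genotype comparisons, and grey boxes run from the lower to the upper quartile of 15409 genes.

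The mean log2 level of the 74 genes gives the same values by library, as a description with no test. In WT CD150hi HSC it was 3.43, 3.57, 3.46, 3.39 and 3.55 in mice 1 to 5. In 5A3+/del CD150hi HSC it was 3.35, 3.31, 3.39, 3.41 and 3.40. 4 of the 5 WT libraries lay above all 5A3+/del libraries, and that of mouse 4 lay among them. Over the large subunit alone, WT CD150hi HSC libraries ran from 3.489 to 3.656 and those of 5A3+/del from 3.327 to 3.484. These groups did not overlap but nearly met, whereas over the small subunit the ranges were 3.22 to 3.40 and 2.98 to 3.37. The large-subunit ranges overlapped in CD150lo HSC, at 3.48 to 3.68 in WT and 3.42 to 3.55 in 5A3+/del. Over the 74 genes in CD150lo HSC the WT libraries were at 3.64, 3.58, 3.52, 3.56 and 3.40, and those of 5A3+/del at 3.37, 3.31, 3.36, 3.46 and 3.41. 4 of 5 WT libraries lay above every 5A3+/del library, and that of mouse 5 lay inside their range. In CD150neg MPP the WT libraries ran from 3.36 to 3.44 and the 5A3+/del libraries from 3.35 to 3.41. MRP genes took 0.165 ± 0.0099% of fragments in WT CD150hi HSC and 0.155 ± 0.0087% in 5A3+/del (SD, n = 5). In CD150lo HSC the shares were 0.168 ± 0.0164% and 0.153 ± 0.0090%.

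**Figure D3:**
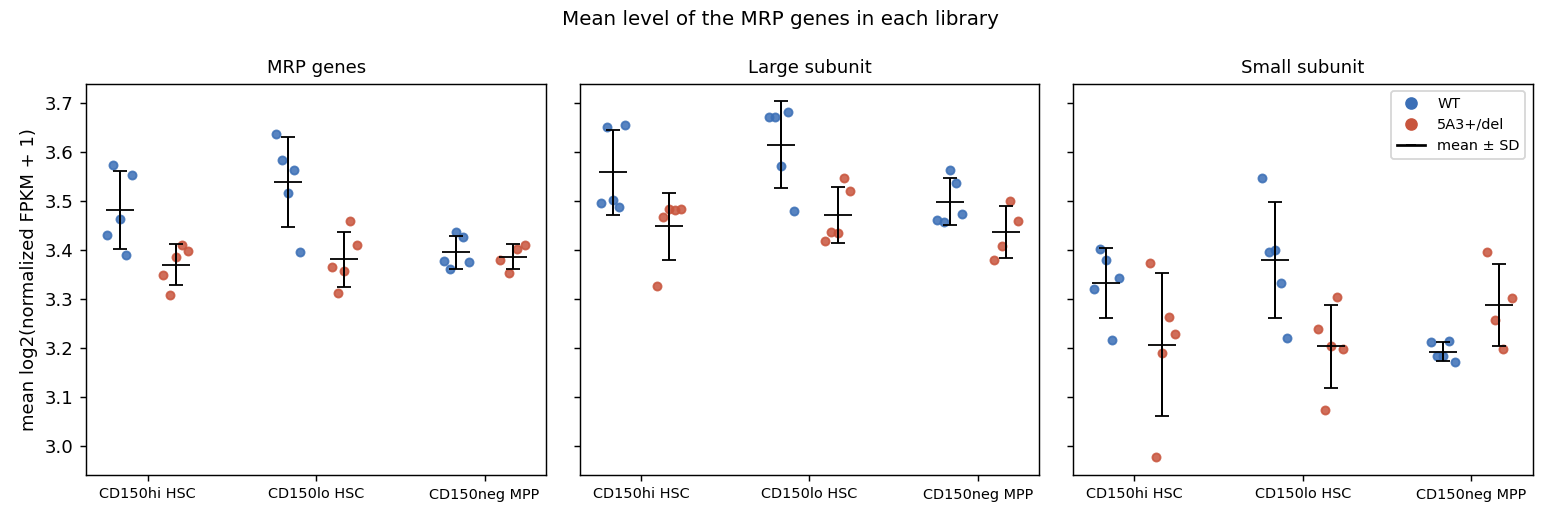
Mean log2(normalized FPKM + 1) over all MRP genes, the large subunit and the small subunit in each library (points) with the group mean ± SD. In CD150lo HSC 4 of the 5 WT libraries lie above all 5A3+/del libraries for the 74 genes, and in CD150neg MPP the genotypes overlap.

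The members with the lowest p in CD150hi HSC were Mrpl9, Mrpl11, Mrps28, Mrps26, Mrpl20 and Mrpl36. Mrpl9, a large-subunit protein of bacterial origin, was higher, at 7.20, 4.12, 12.7, 7.03 and 10.0 normalized FPKM in the WT libraries and 15.7, 12.7, 9.06, 14.0 and 11.9 in 5A3+/del. The groups overlapped, with 2 WT libraries inside the 5A3+/del range (log2 difference 0.63 ± 0.20 SE, adjusted p = 0.153, limma). Mrpl11 was at 23.5, 41.8, 24.99, 31.8 and 29.9 in WT and 17.8, 11.6, 20.05, 19.8 and 31.9 in 5A3+/del. 4 of the 5 5A3+/del libraries lay under all WT libraries, and the fifth lay above 4 of them (difference -0.60 ± 0.19, adjusted p = 0.155).

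Mrps28, in the small subunit, was at 30.0, 19.3, 19.5, 21.8 and 26.7 in WT CD150hi HSC and 15.5, 15.8, 11.8, 15.5 and 18.9 in 5A3+/del. The groups did not overlap, though the highest 5A3+/del library came close to the lowest WT library (difference -0.56 ± 0.18, adjusted p = 0.170). Mrps14, a small-subunit protein of bacterial origin near the decoding site, was the other gene without overlap, at 14.0 to 17.1 in WT and 11.5 to 14.0 in 5A3+/del, separated by a narrow margin. Its spread was small and so was its difference (-0.27 ± 0.10, adjusted p = 0.227). These 2 of 74 genes compare with 1.48% of all genes that were lower without overlap. Mrps26, found only in mitochondria, had means of 4.36 ± 0.866 in WT and 2.73 ± 0.795 in 5A3+/del. Mrpl36 had means of 39.3 ± 7.53 and 26.9 ± 8.89. The other higher genes at p under 0.05 were Mrpl39, at 14.1 ± 3.43 in 5A3+/del against 10.6 ± 2.93 in WT, and Mrpl15, at 7.43 ± 1.96 against 5.66 ± 0.633, both of overlapping range.

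Mrpl20, which encodes a large-subunit protein of bacterial origin, had the largest estimate among the members (-0.82 ± 0.28, adjusted p = 0.202). It was at 22.7, 11.1, 18.1, 24.3 and 17.0 in WT and 2.63, 14.7, 14.3, 12.6 and 11.2 in 5A3+/del. Its estimate leaned on the 5A3+/del library of mouse 1, and leaving that mouse out gave -0.43.

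In CD150lo HSC the members with the lowest p were Mrpl45, Mrps28, Mrpl28, Mrpl23, Mrps16 and Mrps14, all lower in 5A3+/del. Mrpl45, which lies at the exit of the peptide tunnel and anchors the ribosome to the inner membrane, was at 6.68, 6.96, 6.20, 10.1 and 4.60 in WT and 3.11, 3.40, 4.46, 4.65 and 4.45 in 5A3+/del. Only the WT library of mouse 5 fell inside the 5A3+/del range (difference -0.63 ± 0.19, adjusted p = 0.271). Mrps28 was at 32.8, 24.1, 24.9, 25.8 and 19.2 in WT and 16.9, 19.5, 17.9, 19.0 and 12.5 in 5A3+/del (difference -0.53 ± 0.18, adjusted p = 0.384). Again the WT library of mouse 5 was the only WT value within reach of the other group.

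Mrpl28, a large-subunit protein, had means of 16.5 ± 3.27 in WT and 10.8 ± 1.63 in 5A3+/del CD150lo HSC (difference -0.56 ± 0.20, adjusted p = 0.456). Mrps16 had means of 41.2 ± 11.1 and 28.8 ± 2.33 (difference -0.46 ± 0.18, adjusted p = 0.546). Mrpl23, which sits at the tunnel exit, was the single gene without overlap, at 1.83 to 3.70 in WT and 1.13 to 1.80 in 5A3+/del, against 0.876% of all genes lower without overlap. A row whose name marks it as a pseudogene copy, Mrpl23-ps1, was at 19.5 ± 3.79 in WT and 11.6 ± 3.35 in 5A3+/del CD150lo HSC, several times the level of Mrpl23. Fragments from the gene and its copy cannot be told apart here where their sequences match, so the level of Mrpl23 is uncertain. Of the others among the 11, Mrpl18 was at 16.1 ± 2.74 in 5A3+/del against 22.9 ± 3.19 in WT, Mrpl27 at 9.13 ± 1.49 against 12.5 ± 3.08, and Mrpl21 at 11.6 ± 1.72 against 15.5 ± 3.29.

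5 genes were lower at p under 0.05 in both CD150hi HSC and CD150lo HSC: Mrpl11, Mrpl45, Mrps14, Mrps24 and Mrps28. They are 5 of the 10 genes for CD150hi HSC and 5 of the 11 for CD150lo HSC. Over all genes tested, 260 were lower in both, which is 24.8% of the 1047 lower in CD150hi HSC and 41.3% of the 630 lower in CD150lo HSC. Both sets of libraries came from the same mice, so the comparisons are not independent, and nothing particular to the MRP genes is read from this overlap. Mrps24, a small-subunit protein of bacterial origin at the entry of the mRNA channel, had a mean of 12.8 ± 2.26 in the WT libraries and 9.55 ± 1.40 in those of 5A3+/del for CD150hi HSC, and 11.9 ± 3.01 and 8.79 ± 1.92 in CD150lo HSC. It shares 15.4% of its exon bases with Urgcp. None of the 5 was among the genes lower at p under 0.05 in CD150neg MPP. There Mrpl11 was at 19.9 ± 1.59 in WT and 22.1 ± 3.06 in 5A3+/del, Mrpl45 at 4.53 ± 0.548 and 4.20 ± 0.345, and Mrps28 at 18.8 ± 4.06 and 16.5 ± 3.69.

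**Figure D4:**
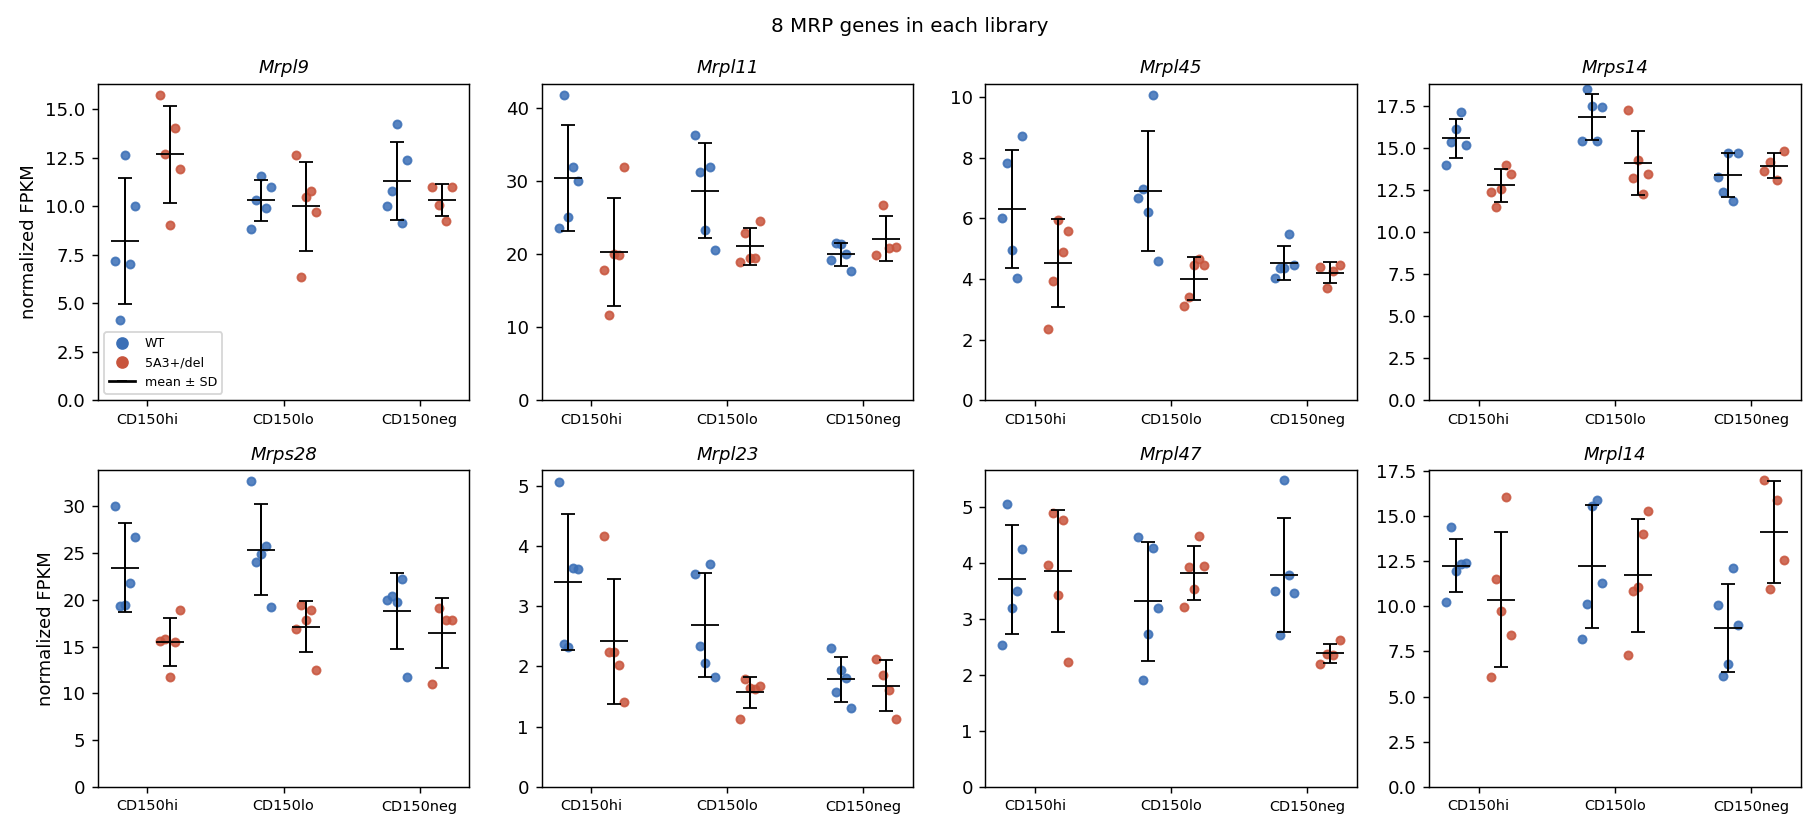
Normalized FPKM of 8 MRP genes in each library (points), with group mean ± SD, by population and genotype. Mrps28 and Mrps14 do not overlap between genotypes in CD150hi HSC, Mrpl23 in CD150lo HSC and Mrpl47 in CD150neg MPP.

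In CD150neg MPP the lowest p-values belonged to Mrpl14, Mrpl47, Mrps23, Mrpl2, Mrps27 and Mrps24. Mrpl14, a large-subunit protein at the face that meets the small subunit, was at 10.0, 6.14, 6.79, 12.1 and 8.94 in WT and 17.0, 10.9, 15.9 and 12.6 in 5A3+/del, where 3 of the 4 libraries lay above every WT library (difference 0.64 ± 0.23, adjusted p = 1.00). Mrpl47 was at 3.50, 2.71, 5.48, 3.78 and 3.47 in WT and 2.20, 2.38, 2.36 and 2.62 in 5A3+/del, without overlap, against 0.792% of all genes (difference -0.48 ± 0.19, adjusted p = 1.00). Mrps23 had means of 8.35 ± 1.48 in WT and 11.1 ± 1.77 in 5A3+/del. Mrps27, which shares 22.6% of its exon bases with a gene on the opposite strand, had means of 4.55 ± 1.49 and 7.60 ± 2.00. Mrpl2, a large-subunit protein of bacterial origin, had means of 11.1 ± 2.10 and 8.06 ± 1.51, and Mrps24 of 9.13 ± 1.20 and 11.3 ± 1.58. In either HSC population Mrpl14 and Mrpl47 had overlapping groups.

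Whether the genotype effect differed between populations was tested directly. No MRP gene was called in any of the 3 contrasts, and neither was any other gene (0% of 15409). At p under 0.05, 9 of 74 members differed between CD150hi HSC and CD150neg MPP, 12.2% against 7.96% of all genes. 7 members differed between CD150lo HSC and CD150neg MPP, 9.46% against 5.00%, and 4 between CD150hi HSC and CD150lo HSC, 5.41% against 3.98%. The median of the difference of effects was -0.10, -0.13 and 0.01 respectively. Small-subunit genes had medians of -0.17 and -0.31 in the contrasts with CD150neg MPP, with 20 and 19 of 25 genes below 0.

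The populations were then compared within each genotype. In WT mice, CD150hi HSC and CD150neg MPP differed in 10.0% of all genes tested, and 1 MRP gene was called. Mrpl23 was higher in CD150hi HSC, at 5.06, 2.38, 2.33, 3.63 and 3.62 against 2.30, 1.57, 1.94, 1.82 and 1.31 normalized FPKM (difference 0.63 ± 0.19, adjusted p = 0.0288, limma). The groups did not overlap, but the lowest CD150hi HSC library and the highest CD150neg MPP library nearly met. The call was lost without WT mouse 1 (adjusted p = 0.0811), mouse 4 (0.0872) or mouse 5 (0.137), in the fit restricted to the groups compared (0.0678) and without quantile normalization (0.0569), and over all alternatives the adjusted p ran from 0.0124 to 0.137. The copy Mrpl23-ps1 was at 19.6 ± 6.23 in CD150hi HSC and 13.2 ± 2.38 in CD150neg MPP (difference 0.50 ± 0.19, adjusted p = 0.112).

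12 of 74 members differed at p under 0.05 between these WT populations, 16.2% against 21.8% of all genes, and the median difference was 0.10 (0.07 without WT mouse 1). Mrps16 was at 37.4, 53.1, 37.3, 40.0 and 42.4 in CD150hi HSC and 25.01, 34.2, 30.4, 28.9 and 25.01 in CD150neg MPP, without overlap (difference 0.53 ± 0.18, adjusted p = 0.0592). Mrpl11 (difference 0.56 ± 0.19, adjusted p = 0.0592, limma) and Mrps24 (0.44 ± 0.15, adjusted p = 0.0738) were likewise higher without overlap. For Mrps24 the nearest libraries were at 11.1 and 10.9 normalized FPKM. The share of all genes without overlap between WT populations is not given here, so nothing particular to the MRP genes is read from it. Mrpl52 was also higher (0.40 ± 0.15, adjusted p = 0.101), whereas Mrpl17, a large-subunit protein of bacterial origin, had an estimate below 0 (-0.45 ± 0.17, adjusted p = 0.106) that was -0.22 without WT mouse 1. With the mouse as a random block, 3 MRP genes were called, Mrpl23 with Mrps16 and Mrpl11 (adjusted p = 0.0421 and 0.0440), and with the mouse as a fixed term 1 was.

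No MRP gene was called between WT CD150lo HSC and CD150neg MPP (0.188% of all genes). 54 of 74 estimates were above 0, with a median of 0.14 (0.09 without WT mouse 1 and 0.22 without WT mouse 5). Of the 74 members, 8 had p under 0.05, where the share over all genes was 8.75%. Mrps23 was at 11.4, 13.1, 14.1, 14.4 and 10.3 in CD150lo HSC and 7.21, 8.89, 6.48, 10.2 and 8.97 in CD150neg MPP, without overlap (difference 0.55 ± 0.16, adjusted p = 0.168). Mrps14 was also higher without overlap (0.31 ± 0.10, adjusted p = 0.241). The share of all genes without overlap is not given for this contrast either, so nothing particular to the MRP genes is read from it. Mrps16, Mrpl45, Mrpl11 and Mrps28 followed, with differences of 0.47, 0.49, 0.48 and 0.42 and overlapping groups, and without WT mouse 1 that of Mrps16 was 0.30. Small-subunit genes had a median of 0.21 and large-subunit genes 0.12. Between WT CD150hi HSC and CD150lo HSC no MRP gene was called (3.53% of all genes), 3 of 74 had p under 0.05 (14.1% of all genes), and the median was -0.06. Those 3 were Mrpl21, lower in CD150hi HSC (-0.50 ± 0.18, adjusted p = 0.158), Mrpl2, higher there (0.48 ± 0.19, adjusted p = 0.216) but at 0.19 without WT mouse 2, and Mrps18c, lower there (-0.49 ± 0.24, adjusted p = 0.346). Next by p came Mrpl9 (-0.37), Mrpl17 (-0.32) and Mrpl52 (0.27), with adjusted p of 0.409 to 0.440. Without WT mouse 2 the estimate for Mrpl9 was -0.18, and without WT mouse 5 that for Mrpl52 was 0.13. The median of this comparison was -0.04 without WT mouse 1.

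In 5A3+/del mice the population medians lay near 0, at -0.02 for CD150hi HSC against CD150lo HSC, 0.00 for CD150lo HSC against CD150neg MPP and -0.01 for CD150hi HSC against CD150neg MPP. No MRP gene was called in any of them, while 3.18%, 0.0389% and 6.16% of all genes were. At p under 0.05 there were 4, 4 and 2 of the 74 members, where the shares over all genes were 13.3%, 4.95% and 16.9%. The genotype and population comparisons share libraries, so the higher WT values in HSC enter both, and the contrasts of effects above are the direct test of whether the genotypes differed in this respect.

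Other genes of mitochondrial translation were taken from lists drawn up with earlier results of these data known. Of 7 further mitoribosomal proteins that carry other names, among them Dap3 and Ptcd3, none was called or had p under 0.05 between genotypes, and medians were -0.13 for CD150hi HSC, -0.09 for CD150lo HSC and -0.12 for CD150neg MPP. Of 14 translation factors none was called. In CD150hi HSC 3 of the 14 were lower at p under 0.05, against 6.79% of all genes: Gfm1, an elongation factor (5.55 against 9.72 normalized FPKM, adjusted p = 0.152), Tufm, the elongation factor that delivers aminoacyl-tRNA (4.46 against 6.73, adjusted p = 0.202), and Mrrf, the recycling factor (6.15 against 8.66, adjusted p = 0.312). Mtrf1, a release factor homolog, was higher (7.97 against 5.06, adjusted p = 0.370). The median over the 14 was 0.11, of the opposite sign to the 3 lower genes. None of the 14 had p under 0.05 in CD150lo HSC, and in CD150neg MPP 2 were lower, Mtrf1 and Taco1 (both adjusted p = 1.00), against 1.99% of all genes, and 0 without WT mouse 1.

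Of 17 mitochondrial aminoacyl-tRNA synthetases and 24 genes for ribosome assembly and rRNA modification, none was called between genotypes, and medians lay between -0.08 and 0.01. Lars2 stood far above the other synthetases, at 358 to 1458 FPKM, and in CD150lo HSC its normalized mean was 1066 in 5A3+/del and 567 in WT (adjusted p = 0.163). Why the Lars2 row was so high was not tested, so these values are not read as the level of the synthetase transcript. The ribosomal RNAs mt-Rnr1 and mt-Rnr2 were at or above 36468 FPKM in every library, at the top of the range where quantile normalization leaves little room for a difference. Between WT CD150hi HSC and CD150neg MPP, 10.0% of all genes tested were called. Among them was Rbfa, which helps mature the small subunit, at 6.60 ± 1.54 against 9.73 ± 1.61 (difference -0.51 ± 0.17, adjusted p = 0.0464). The call was lost with the mouse as a fixed block (adjusted p = 0.0866), in a separate fit of these libraries (0.134) and without the filter (0.0676). It was also lost without WT mouse 1, 2, 3 or 5, with an adjusted p of 0.119, 0.239, 0.102 and 0.0937, and without 5A3+/del mouse 2, 3, 4 or 5, with 0.0564 to 0.0683. Over all alternatives its adjusted p lay between 0.0235 and 0.239.

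The proteins of the cytosolic ribosome gave a reference. Of 80 such genes tested, 71 had an estimate below 0 in 5A3+/del CD150hi HSC, with a median of -0.18. 34 of the 80 (42.5%) were lower at p under 0.05 and 16 without overlap, beside 13.5% and 2 of the 74 MRP genes, a difference that was not tested. Over all genes tested the shares were 6.79% and 1.48%. In CD150lo HSC 67 were below 0 with a median of -0.14, and 23 (28.7%) were lower at p under 0.05, against 4.09% of all genes. In CD150neg MPP 53 were below 0 with a median of -0.03, and 1 was lower at p under 0.05, against 1.99% of all genes. With WT mouse 1 left out, 27 of the CD150hi HSC genes, 14 of those for CD150lo HSC and 0 for CD150neg MPP were lower at p under 0.05. Their standard errors, 0.0995 in the median, were about those of Mrps14 and well below the 0.196 of the MRP genes.

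Promoter sequence was examined because the members share a role. RefSeq windows of 250 bases before to 50 bases after the transcription start (GRCm38.p6, a later build than that of the expression table) matched 67 of the 76 genes, with 73 windows. The motifs searched on both strands were CCGGAAG, a core bound by ETS family factors, GCGCATGCG, GCGCACGCG or GCGCAGGCG for NRF1, an activator of nuclear genes for mitochondria, AAGATGG for YY1 and GGGCGG for Sp1. The ETS core was found in 32.9% of MRP windows, 17.2% of windows of genes tested and 8.86% of all windows. The NRF1 forms were found in 20.6%, 11.9% and 5.74%, the YY1 form in 17.8%, 6.92% and 6.34%, and the Sp1 form in 52.1%, 60.9% and 35.7%. 34 of the 67 genes had an ETS core or an NRF1 form, and 5 had both. Sp1 forms were found in 69.6% of 23 small-subunit genes and 37.2% of 43 large-subunit genes, against 67.3% of genes tested. These are letter matches with no test, and no binding was measured.

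The 120 bases before the start are shown for the 4 of those 5 genes that have a window (Mrps28 has none here), with ETS or NRF1 matches in capitals, as examples of promoters of members described above.
Mrpl11: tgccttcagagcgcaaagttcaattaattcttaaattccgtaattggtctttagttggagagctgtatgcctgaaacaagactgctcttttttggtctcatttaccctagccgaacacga
Mrpl45: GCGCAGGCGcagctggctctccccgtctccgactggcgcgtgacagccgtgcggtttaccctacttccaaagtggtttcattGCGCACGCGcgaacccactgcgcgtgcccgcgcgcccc
Mrps14: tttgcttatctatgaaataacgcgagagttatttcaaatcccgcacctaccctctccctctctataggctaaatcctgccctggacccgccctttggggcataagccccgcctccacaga
Mrps24: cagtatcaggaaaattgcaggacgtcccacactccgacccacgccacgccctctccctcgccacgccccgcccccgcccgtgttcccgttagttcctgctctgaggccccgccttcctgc
They lie at chr19:4962186-4962305 (plus strand), chr11:97315596-97315715 (plus strand), chr1:160195095-160195214 (plus strand) and chr11:5707702-5707821 (minus strand) in GRCm38.p6. Mrpl45 holds a pair of NRF1 forms, from 120 to 112 and from 38 to 30 bases before the start. The other three hold no ETS core or NRF1 form within 250 bases before the start. Mrps14 and Mrps24 hold Sp1 forms, at 34 to 29 bases before the start in Mrps14 and in a pair of adjacent matches from 53 to 42 bases before it in Mrps24.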

How the data were processed

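The deposited table holds FPKM values computed by the authors for 30025 genes in 29 libraries, from paired-end reads of amplified RNA mapped to mm9. The submitters' processing notes name Bowtie 0.12.2 and HTSeq, and the rule for shared exons or strand is not given in the sources used here. The study itself tested a different quantity, coverage of the most covered coding exon. Whole fragments were recovered from the FPKM steps for 98.64 to 99.06% of low values (tolerance 0.1).

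Genes that reached 1 FPKM in 4 or more libraries (15409) were transformed as log2(FPKM + 1), so fold changes of low genes are understated, then quantile normalized and fitted by group means over all 29 libraries with limma 3.58.1 in R 4.3.3. Tests were two-sided, with Benjamini-Hochberg adjustment over all genes at 0.05. The fit was tested on simulated data. Levels are quantile-normalized FPKM. Tables were handled in Python 3.11.15 with pandas 2.3.3.

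The members and gene lists were chosen with earlier results of these data known. Genes named with values were the 6 lowest by p in each genotype contrast and WT population contrast, the 5 highest and 5 lowest in WT CD150hi HSC, and a set by role. Others were chosen after their values were seen, among them Mrpl15, Mrpl18, Mrpl27, Mrpl39 and the genes outside the family. Libraries of the same mouse, per the labels, pair the populations. The correlation of their deviations from the group means ran from -0.0418 to 0.235 over 28 pairs (median 0.0786). Mice of the 2 genotypes are not paired. 22 alternatives were run, covering filters, pseudocount, normalization, covariates, mouse blocks, length and GC content, and leaving out each mouse. Exon lengths came from the annotation matched to 97.52% of rows. Some single-gene results outside the family are not reported here.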

Additional observations from a re-analysis of the deposited data

Results flagged for a closer look

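Of 120 groups of 4 or 5 libraries examined, 11 held a library far from the others by Dixon's criterion, where chance alone flags about 1 in 20. In WT CD150hi HSC, mouse 2 was high for Mrpl2, at 25.02 normalized FPKM against 11.4 to 13.5 in the other libraries, and for Mrpl36, at 52.5 against 33.3 to 37.5. In WT CD150neg MPP, Mrpl45 was at 5.47 in mouse 4 against 4.03 to 4.45, and Mrps28 at 11.8 in mouse 5 against 19.8 to 22.2.

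In 5A3+/del CD150hi HSC, mouse 1 was low for Mrpl20, at 2.63 normalized FPKM against 11.2 to 14.7, and its mean log2 level over the large subunit was 3.33 against 3.47 to 3.48. In 5A3+/del CD150lo HSC, Mrpl23 was at 1.13 in mouse 1 against 1.63 to 1.80, and Mrpl36 at 46.6 in mouse 2 against 32.8 to 35.6. In 5A3+/del CD150neg MPP, mouse 2 was high for Mrpl11, at 26.6 against 19.9 to 21.0, and for Mrpl20, at 18.2 against 11.1 to 11.6, while Mrps28 was at 11.0 in mouse 1 against 17.8 to 19.2.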

How the results depend on the processing

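No MRP gene was called between genotypes under any alternative run. Adjusted p (limma) reached 0.0675 at its lowest for CD150hi HSC (without WT mouse 3), 0.0926 for CD150lo HSC and 0.646 for CD150neg MPP. With the Xist level as a covariate, the lowest adjusted p (limma) for CD150hi HSC was 0.0849. The median difference stayed below 0 in all 3 populations, from -0.167 to -0.066 in CD150hi HSC, the latter with the length and GC trend removed, from -0.183 to -0.110 in CD150lo HSC and from -0.062 to -0.012 in CD150neg MPP. Genes lower at p under 0.05 numbered 6 to 14 in either HSC population, with 6 in CD150hi HSC in the fit of only the groups compared, and in CD150lo HSC 6 without 5A3+/del mouse 4 and 7 without WT mouse 1 or 2. Between WT CD150hi HSC and CD150neg MPP the count of called MRP genes was 2 with FPKM of at least 5 (where Mrpl23 was not tested) or with the length and GC trend removed, 3 with limma's variance trend or with the mouse as a random replicate block, 1 with the mouse as a fixed block, and 0 without quantile normalization or in the fit of only those groups. It ran from 0 to 2 when each mouse was left out, with 0 without WT mouse 1, 4 or 5. The median of that contrast ran from 0.039 (without WT mouse 2) to 0.136, and that of WT CD150lo HSC against CD150neg MPP from 0.089 to 0.222 (without WT mouse 5). The block changed no other MRP call counted here, whereas the Rbfa call was lost with the mouse as a fixed block. The causes were not tested. In 5A3+/del mice the population medians lay so near 0 that their sign varied. Median standard errors near 0.196 limit what single genes can show, and the 2 genes with few or no fragments cannot be assessed.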
